A study of Mus musculus with 4 samples.

Results

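The class 3 semaphorins and their plexin receptors were followed here through 10 genes, the 7 secreted ligands Sema3a to Sema3g and the 3 receptors Plxna1, Plxna2 and Plxnd1, out of 23990 genes listed. Each gene was taken by its symbol and was found once in every library. The list was selected on the levels of these same 4 libraries and on the contrast between their labels, which were known when it was drawn up. The levels and differences of the 10 genes are therefore a description, and none of them carries a p-value.

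The samples were alveolar type 1 cells, the thin flat cells of the gas-exchange surface, sorted from mouse lungs at postnatal day 3 to 4 on a mixed B6 and 129 background. The tested animals carried Scnn1a-Cre; Rosa[Sox2/+], in which Cre switches on the airway transcription factor Sox2 from the Rosa locus (n = 2 libraries). The control animals were littermates with Scnn1a-Cre; Rosa[mTmG/+], in which Cre switches a membrane-bound fluorescent reporter (n = 2 libraries). Both groups thus carry the same Cre, driven from Scnn1a, the gene of an epithelial sodium channel subunit, so recombination is limited to cells in which that gene is active. The colour gate of the sort and the number of animals per library were not given in the sources used here. RNA was measured by sequencing of poly-A libraries and is given as FPKM, fragments scaled to transcript length and to sequencing depth, which allows levels of different genes to be set side by side.

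Sox2 itself went against the labels. It stood at 1.41 and 1.99 FPKM in the Sox2-labelled libraries and at 302 and 477 FPKM in the WT-labelled libraries, so the groups are called by their labels throughout, and every direction below is a direction between labels. Of the 12 alveolar type 1 cell markers, 10 passed limma's test as higher in the Sox2-labelled libraries, and all 12 together summed to 7364 and 8850 FPKM there, against 1811 and 995 FPKM in the WT-labelled libraries. Airway basal and squamous markers summed to 5.05 and 4.02 FPKM in the Sox2-labelled libraries and to 74.5 and 339 FPKM in the WT-labelled libraries. Of 7 tested basal and squamous genes, 5 passed limma's test as lower under the Sox2 label and 2 did not pass. Krt5, a defining basal keratin, was listed at 0 in both Sox2-labelled libraries and reached 0.686 FPKM at most in the WT-labelled libraries. The other airway list, club and ciliated markers, ran the other way. It summed to 3858 and 6352 FPKM under the Sox2 label and to 2079 and 2226 FPKM under the WT label, and 2 of 7 tested genes passed as higher. Several marker lists of other cells differed between the labels as well. Alveolar type 2 cell markers, the genes of the surfactant-making cells, summed to 26770 and 18625 FPKM under the Sox2 label and to 6481 and 1131 FPKM under the WT label, and 11 of 12 passed limma's test as higher under the Sox2 label. Endothelial markers summed to 245 and 154 FPKM under the Sox2 label and to 63.6 and 27.7 FPKM under the WT label. Mesenchymal markers summed to 339 and 121 FPKM, against 149 and 35.5 FPKM, in the same order of labels. The mesenchymal sums thus overlapped between labels, and 0 of 10 tested genes passed. Leukocyte markers summed to 845 and 623 FPKM, against 291 and 94.9 FPKM, and 2 of 7 tested genes passed as higher under the Sox2 label. Lyz1 alone made up 723 and 571 FPKM of the leukocyte sums, against 245 and 60.0 FPKM. Neuron and Schwann cell markers, the textbook partners of semaphorins, stayed at a summed 1.37 FPKM or less in every library. Whether fewer cells of a type or less RNA per cell lowers a level cannot be told apart in sorted bulk RNA.

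Class 3 semaphorins are secreted proteins that steer axons, blood vessels and migrating cells, mostly by repulsion. Most of them bind a neuropilin, which holds the ligand, and signal through an A-type plexin, whose cytoplasmic part switches off Ras-family GTPases and rearranges actin. Sema3e is the exception that binds plexin D1 directly, a receptor best known from endothelial cells. In the lung, class 3 semaphorins are known for roles in branching of the airways and in the growth of alveolar vessels.

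As a group, the ligands were more abundant in the Sox2-labelled libraries. Their 7 levels summed to 255 and 270 FPKM there, against 86.5 and 35.8 FPKM in the WT-labelled libraries. The 3 plexins summed to 55.6 and 55.8 FPKM under the Sox2 label and to 39.8 and 29.0 FPKM under the WT label. The libraries of the 2 labels did not overlap for 8 of the 10 genes, 7 of them higher and 1 lower in the Sox2-labelled libraries, whereas 58.1% of all 12040 tested genes did not overlap either. By limma with an adjusted p under 0.05, 4.20% of tested genes were called higher in the Sox2-labelled libraries and 8.11% lower, that is 506 and 976 genes. Under median-of-ratios rescaling of the libraries this split became 964 higher and 686 lower. Sema3a, Sema3b and Sema3e were among the genes called higher, and since this same contrast chose the list, nothing is read from that count. The median log2 difference was 1.03 over the 10 genes, 1.26 over the ligands and -0.29 over all tested genes. That rescaling shifted the last of these to 0.0002, and it raised the differences of the 10 genes by unequal amounts, for example that of Sema3d to -1.68 and that of Sema3e to 3.43.

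**Figure D1:**
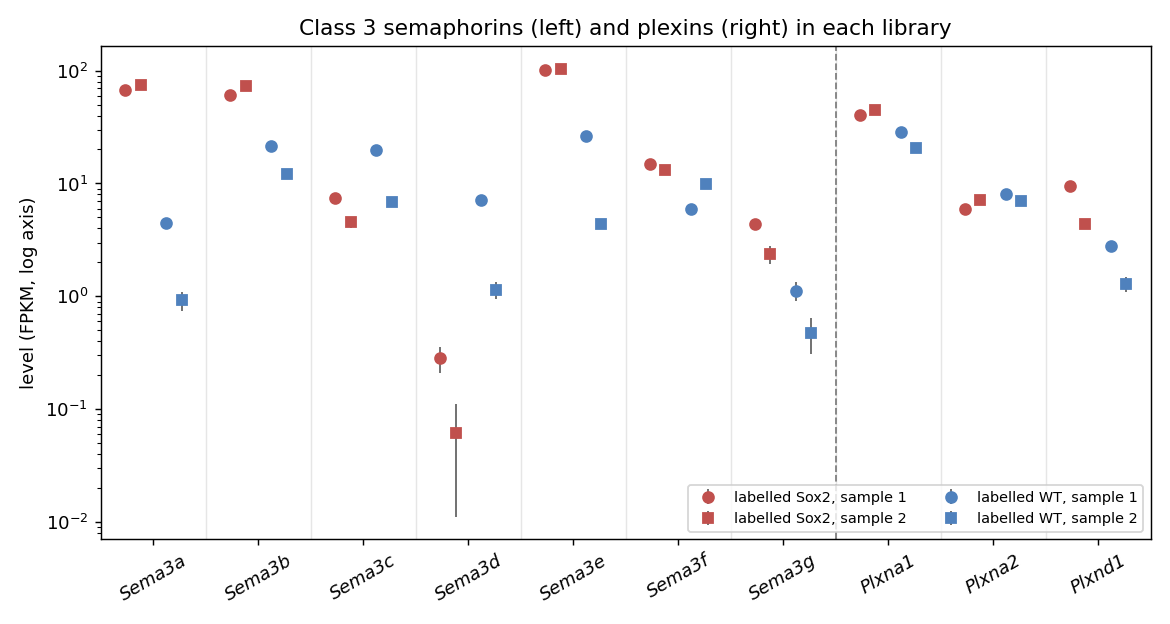
Level of each gene in every library (FPKM, log axis). Red symbols are the Sox2-labelled libraries and blue symbols the WT-labelled libraries, circles are sample 1 and squares sample 2, and vertical lines are the authors' deposited lower and upper bounds. Sema3a, Sema3b and Sema3e stand higher in red than in blue, Sema3d stands lower, and Sema3c and Plxna2 overlap.

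Sema3a, the founding repellent of the family, which acts through neuropilin 1, showed the widest contrast among the ligands that were higher. It reached 66.8 and 74.9 FPKM in the Sox2-labelled libraries, against 4.45 and 0.922 FPKM in the WT-labelled libraries. Both Sox2-labelled libraries lay far above both WT-labelled ones, and the WT-labelled samples also differed 4.83-fold from each other. The log2 difference was 4.47 (SE 0.46), and the ratio of means was 26.3, with a ratio of 76.8 without labelled WT sample 1 and 15.9 without labelled WT sample 2.

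Sema3e, the ligand of plexin D1, was the most abundant class 3 semaphorin in the Sox2-labelled libraries, at 101 and 103 FPKM, against 26.6 and 4.38 FPKM in the WT-labelled libraries. The Sox2-labelled libraries were almost equal, whereas the WT-labelled samples were 6.06-fold apart, so the size of the contrast rests on which of them is used. The log2 difference was 3.08 (SE 0.59). The ratio of means was 6.59, and it became 23.3 without labelled WT sample 1 and 3.84 without labelled WT sample 2.

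Sema3b, which binds both neuropilins and is known in human lung cancer as a candidate tumour suppressor, had 60.2 and 72.4 FPKM under the Sox2 label and 21.4 and 12.1 FPKM under the WT label. The groups did not overlap, the log2 difference was 1.97 (SE 0.35) and the ratio of means 3.96. Sema3f, the main ligand of neuropilin 2, was less abundant, with 14.9 and 13.3 FPKM in the Sox2-labelled libraries and 5.99 and 9.82 FPKM in the WT-labelled libraries. Its contrast was the smallest of the ligands that did not overlap, with a log2 difference of 0.79 (SE 0.37) and a ratio of means of 1.78. Sema3g, a ligand known mainly from blood vessel endothelium, was scarce, at 4.35 and 2.36 FPKM under the Sox2 label and 1.13 and 0.476 FPKM under the WT label. Its log2 difference was 1.26 (SE 0.42), and its ratio of means of 4.19 became 7.04 without labelled WT sample 1.

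The remaining ligands ran the other way in the mean. Sema3d, which guides endothelial cells and is known from the patterning of the pulmonary veins, stood at 0.285 and 0.0611 FPKM in the Sox2-labelled libraries, against 7.14 and 1.14 FPKM in the WT-labelled libraries. Both values under the Sox2 label were below 1 FPKM, and the deposited bounds of the lower one ran from 0.0112 to 0.111 FPKM. The log2 difference was -1.84 (SE 0.56) with a pseudocount of 1, -3.59 with a pseudocount of 0.1 and -0.88 without labelled WT sample 1. The ratio of means, labelled WT over labelled Sox2, was 23.9, and it was 67.8 without labelled Sox2 sample 1, 14.5 without labelled Sox2 sample 2, 6.60 without labelled WT sample 1 and 41.2 without labelled WT sample 2. Sema3c, which is needed for septation of the cardiac outflow tract and binds both neuropilins, had 7.50 and 4.55 FPKM under the Sox2 label and 19.9 and 6.90 FPKM under the WT label. Labelled WT sample 2 lay between the Sox2-labelled libraries, so the groups overlapped, and the log2 difference of -0.90 (SE 0.48) was -0.20 without labelled WT sample 1, -1.60 without labelled WT sample 2, -1.21 without labelled Sox2 sample 1 and -0.60 without labelled Sox2 sample 2.

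**Figure D2:**
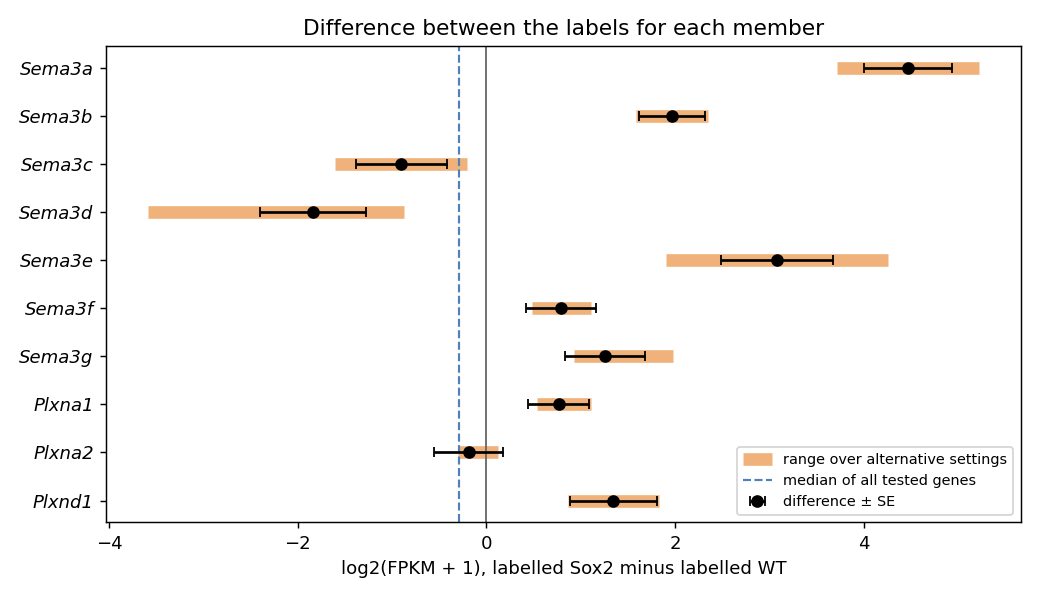
Difference of log2(FPKM + 1), Sox2-labelled libraries minus WT-labelled libraries, for each gene. Points and whiskers are the difference with its standard error from limma, orange bars are the range over the alternative settings, and the dashed line is the median of all tested genes. The bars of Sema3a, Sema3b and Sema3e stay above 1.5, while the bar of Plxna2 crosses 0.

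Expressed as shares of the summed ligand FPKM, which no scaling factor between libraries can change, the mix of ligands differed between labels. Sema3a made up 26.2% and 27.7% of it in the Sox2-labelled libraries, against 5.15% and 2.58% in the WT-labelled libraries. Sema3e made up 39.7% and 38.0%, against 30.7% and 12.3%. Together with Sema3b, at 23.6% and 26.8% under the Sox2 label and 24.7% and 33.9% under the WT label, these were the bulk of the ligand RNA in the Sox2-labelled libraries. The share of Sema3b thus overlapped between labels although its level did not. Sema3c took 2.94% and 1.68% in the Sox2-labelled libraries and 23.0% and 19.3% in the WT-labelled libraries, so its share was separated by label although its level was not. Sema3d took 0.112% and 0.0226%, against 8.26% and 3.19%. Sema3f took 5.83% and 4.92% under the Sox2 label and 6.92% and 27.5% under the WT label, and its share set the WT-labelled libraries apart from each other. Sema3g stayed at 1.70% or less in every library. As a ratio within each library, Sema3a exceeded Sema3d 234-fold and 1225-fold in the Sox2-labelled libraries, whereas it was 0.624 and 0.807 times Sema3d in the WT-labelled libraries.

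**Figure D3:**
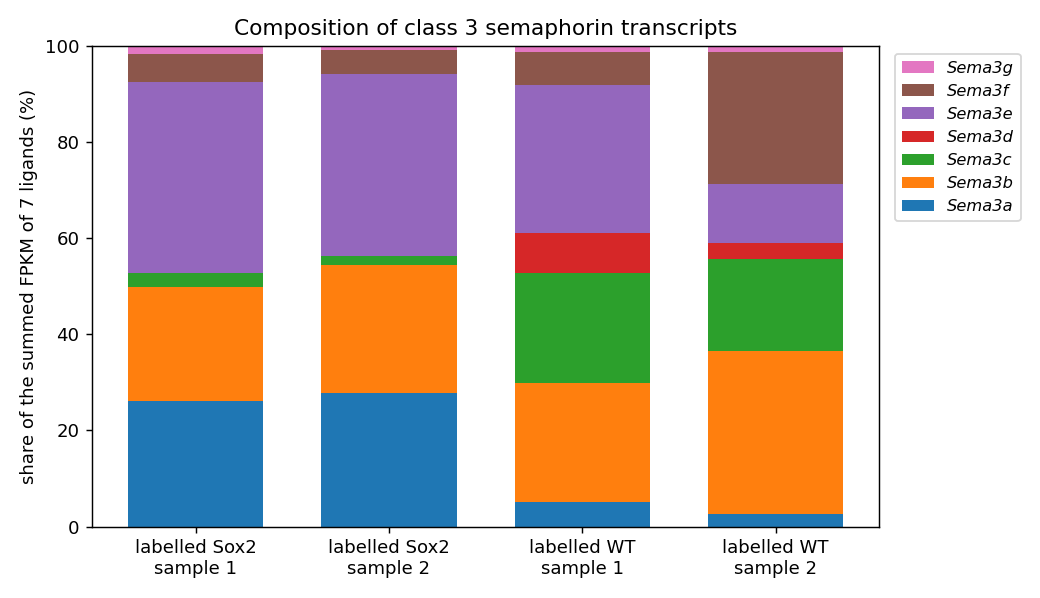
Share of each ligand in the summed FPKM of the 7 class 3 semaphorins, for each library (%). The Sox2-labelled libraries are the left pair and the WT-labelled libraries the right pair. Sema3a and Sema3e fill most of the left bars, and Sema3c fills 23.0% and 19.3% of the right bars.

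The rank order of the 10 genes differed accordingly. In the Sox2-labelled libraries the order of mean FPKM was Sema3e, Sema3a, Sema3b, Plxna1, Sema3f, Plxnd1, Plxna2, Sema3c, Sema3g and Sema3d. Sema3a and Sema3b overlapped there, as did Plxnd1 with Plxna2 and Plxna2 with Sema3c, and the other neighbours in the order did not. In the WT-labelled libraries the order was Plxna1, Sema3b, Sema3e, Sema3c, Sema3f, Plxna2, Sema3d, Sema3a, Plxnd1 and Sema3g, and each gene overlapped with the next except Plxnd1 with Sema3g.

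The genes of 4 ligands lie near each other on chromosome 5 of mm10, in the order Sema3d (chr5:12383166-12588943), Sema3a (chr5:13396784-13603485), Sema3e (chr5:14025276-14256689) and Sema3c (chr5:17574816-17730267). The gap from Sema3d to Sema3a is 808 kb and holds no other listed gene, and the gap from Sema3a to Sema3e is 422 kb and holds only Speer3. Sema3c lies 3.32 Mb beyond Sema3e, with 14 listed genes between them, none of which averaged 1 FPKM. Neighbours did not all run together: Sema3a and Sema3e were higher in the Sox2-labelled libraries, and Sema3d, on the other side of Sema3a, was lower. Sema3b (chr9:107597674-107609241) and Sema3f (chr9:107681502-107710475) are 72.3 kb apart with Gnat1, Slc38a3 and Gnai2 between them, and both were higher in the Sox2-labelled libraries. Sema3g lies at chr14:31217873-31229511, Plxna1 at chr6:89316314-89362613, Plxnd1 at chr6:115954811-115995005 and Plxna2 at chr1:194619829-194816868.

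The start-site windows of the chromosome 5 ligands are shown because Sema3d and its neighbour Sema3a carried opposite contrasts. Each is the RefSeq sequence of 250 bases before to 50 bases after a listed start on the plus strand of GRCm38.p6, 5′ to 3′, with the CG dinucleotides in capitals. They are, in genome order, chr5:12382916-12383215 for Sema3d, chr5:13396534-13396833 for Sema3a, chr5:14025026-14025325 for Sema3e and chr5:17574566-17574865 for Sema3c.
Sema3d: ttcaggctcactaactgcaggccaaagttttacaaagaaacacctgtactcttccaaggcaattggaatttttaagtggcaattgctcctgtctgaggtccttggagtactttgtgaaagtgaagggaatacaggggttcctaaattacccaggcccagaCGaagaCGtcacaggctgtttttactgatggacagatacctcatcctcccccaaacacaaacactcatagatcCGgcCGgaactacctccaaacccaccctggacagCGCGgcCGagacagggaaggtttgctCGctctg
Sema3a: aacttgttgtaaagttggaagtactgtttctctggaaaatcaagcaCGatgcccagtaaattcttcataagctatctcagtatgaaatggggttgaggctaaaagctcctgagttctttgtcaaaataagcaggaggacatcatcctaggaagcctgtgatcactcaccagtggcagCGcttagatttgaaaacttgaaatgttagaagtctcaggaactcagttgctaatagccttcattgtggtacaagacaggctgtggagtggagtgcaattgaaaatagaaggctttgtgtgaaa
Sema3e: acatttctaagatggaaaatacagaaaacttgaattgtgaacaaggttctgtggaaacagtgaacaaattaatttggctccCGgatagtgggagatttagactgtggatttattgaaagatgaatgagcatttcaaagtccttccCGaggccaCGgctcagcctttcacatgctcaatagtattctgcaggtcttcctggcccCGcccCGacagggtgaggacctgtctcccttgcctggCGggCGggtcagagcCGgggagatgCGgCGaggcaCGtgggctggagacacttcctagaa
Sema3c: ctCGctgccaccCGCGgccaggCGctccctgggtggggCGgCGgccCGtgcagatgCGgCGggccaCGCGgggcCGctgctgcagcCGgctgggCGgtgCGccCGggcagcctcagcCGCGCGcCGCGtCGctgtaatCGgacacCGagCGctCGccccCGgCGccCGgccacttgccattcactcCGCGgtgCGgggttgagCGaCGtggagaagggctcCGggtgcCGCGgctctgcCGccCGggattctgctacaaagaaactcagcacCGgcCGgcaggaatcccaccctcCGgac

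These windows are unlike in base composition. The Sema3c window holds 42 CG dinucleotides at 75.7% G and C, the Sema3e window 11 at 50.7%, the Sema3d window 8 at 49.7% and the Sema3a window 2 at 41.3%. Over all 32851 windows of the table the median was 7 CG dinucleotides and 52.7% G and C. The quartiles were 3 and 20 CG dinucleotides, so the Sema3a window lay below the lower quartile and the Sema3c window above the upper one. The authors' values list 3 start sites for Sema3a, and its window covers a single one. Which start these cells used was not tested. Windows were present for 7 of the 10 genes, and those of Plxna2, Plxnd1 and Sema3g held 25, 23 and 8 CG dinucleotides. Each of the 7 windows was searched on both strands for 3 short motifs. A SOX-type motif, ACAATG, occurred in the Sema3a window alone, as CATTGT starting 13 bases before the start, and it occurs in 12.6% of all windows. A TEAD-type motif, GGAATG, occurred in the Plxnd1 window alone, as CATTCC starting 173 bases before the start, and it occurs in 14.7% of all windows. An NKX2-1-type motif, CTCAAG, occurred in none of the 7 and occurs in 15.9% of all windows.

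Among the receptors, Plxna1, a partner of neuropilins and the signalling part of the class 3 receptor, was the most abundant member plexin. It had 40.1 and 44.4 FPKM in the Sox2-labelled libraries, against 28.9 and 20.7 FPKM in the WT-labelled libraries, without overlap. Its log2 difference was 0.76 (SE 0.32) and its ratio of means 1.71. Plxna2, a related receptor, had 5.95 and 7.08 FPKM under the Sox2 label and 8.10 and 7.02 FPKM under the WT label. The groups overlapped, and the log2 difference of -0.19 (SE 0.37) took the opposite sign under 3 rescalings of the libraries, at 0.0756 to 0.13. Plxna1 was 6.75 and 6.27 times Plxna2 in the Sox2-labelled libraries and 3.56 and 2.94 times in the WT-labelled libraries.

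Plxnd1, the receptor of Sema3e, had 9.49 and 4.36 FPKM under the Sox2 label and 2.80 and 1.29 FPKM under the WT label, with no overlap between labels. Its log2 difference was 1.35 (SE 0.46). The ratio of means of 3.39 was 2.13 without labelled Sox2 sample 1 and 5.36 without labelled WT sample 1. Ligand exceeded receptor in every library, since Sema3e was 10.7 and 23.6 times Plxnd1 under the Sox2 label and 9.50 and 3.39 times under the WT label.

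Levels of Plxnd1 and Sema3g moved with the summed endothelial markers over the 4 libraries. They moved nearly as closely with the leukocyte sum, but that sum is mostly Lyz1. Sema3g amounted to 1.77% and 1.53% of the summed endothelial list in the Sox2-labelled libraries and to 1.77% and 1.72% in the WT-labelled libraries, although the sum itself varied 8.85-fold. Plxnd1 amounted to 3.87% and 2.82%, against 4.40% and 4.67%. The largest share of the endothelial sum was 1.16 times the smallest for Sema3g and 1.65 times for Plxnd1. For the leukocyte sum these ratios were 1.36 and 1.95, and a sum without Lyz1 was not tested. For the mesenchymal sum they were 2.57 and 1.94. In the list of 12 endothelial genes, Cdh5, Cldn5, Esam and Plvap passed limma's test as higher in the Sox2-labelled libraries and the other 8 did not pass. Esam alone made up 63.3 and 74.5 FPKM of the endothelial sum under the Sox2 label. Every other gene of that list was lower in labelled Sox2 sample 2 than in sample 1, as were Plxnd1 and Sema3g. The steadiness of the Sema3g share thus depends on Esam, and so does the spread of the Plxnd1 share. These spreads therefore do not rank Sema3g above Plxnd1, and spreads without Esam were not tested. By contrast, Sema3a amounted to 27.3% and 48.5% of that sum under the Sox2 label and to 7.01% and 3.33% under the WT label, a 14.6-fold spread. Measured against the alveolar type 1 markers, Sema3b amounted to 0.818% and 0.819% of their sum under the Sox2 label and to 1.18% and 1.22% under the WT label. Sema3f tracked the mesothelial sum, mostly Msln, at 15.6% and 15.0% under the Sox2 label and 14.9% and 15.5% under the WT label. Every mesothelial gene but Msln overlapped between labels. Upk3b, the next most abundant, had 5.16 and 0.699 FPKM, against 2.70 and 0.113 FPKM. Against the alveolar type 2 markers, Sema3e amounted to 0.378% and 0.551% of the sum under the Sox2 label and to 0.410% and 0.388% under the WT label, a 1.46-fold spread, while that sum varied 23.7-fold. Nrp1, the neuropilin of Sema3a, amounted to 0.180% and 0.182%, against 0.139% and 0.135%, of the same sum. Sema3a was steadiest against that list too, but with a 5.85-fold spread. Each list was picked as the steadiest of 9 marker lists for that gene after the values were seen. The endothelial share of Sema3a and the leukocyte and mesenchymal ratios are the exceptions. The part of other cells in the levels was not tested. The same choice set Plxna2 and Sema3c against the neuron and Schwann list, with 1.77-fold and 2.81-fold spreads. That list summed to 1.37 FPKM or less in every library. Plxna1 was steadiest against the club and ciliated list, with a 1.99-fold spread.

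Genes with the most similar profile over the 4 libraries were found by the Euclidean distance between centred log2(FPKM + 1) values, as a description. For Sema3a they were Col4a4, a basement membrane collagen chain, at a distance of 0.30, then Igfbp7 at 0.31 and Thbs3 at 0.39. Col4a4 had 155 and 176 FPKM in the Sox2-labelled libraries and 15.0 and 3.41 FPKM in the WT-labelled libraries. For Sema3e the nearest was Lama3, a laminin chain, at 0.10, with 100.1 and 112 FPKM, against 27.2 and 4.47 FPKM, which is nearly the level of Sema3e itself in all 4 libraries. For Sema3g the nearest was Fli1, an ETS factor of blood and endothelium, at 0.02, with 4.67 and 2.63 FPKM, against 1.27 and 0.575 FPKM. For Plxnd1 it was Sox9 at 0.10, and for Sema3d it was Rgs8 at 0.26, which had 0.00527 and 0.0230 FPKM under the Sox2 label and 6.57 and 0.723 FPKM under the WT label.

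Beyond the 10 genes, 57 of 67 listed genes of semaphorin signalling averaged at least 1 FPKM and were tested on their own. Of these, 6 were higher and 7 lower in the Sox2-labelled libraries by limma at an adjusted p under 0.05, and 44 did not pass. The median log2 difference of the 57 was -0.11. The count depended on each library, with 2 higher and 3 lower without labelled Sox2 sample 1, 0 and 2 without labelled Sox2 sample 2, 10 and 6 without labelled WT sample 1, and 4 and 5 without labelled WT sample 2. Each of these fits sets 1 library against 2 and assumes that the lone library varies like those of the other label, so a small p from one of them shows no stability. In the fit without labelled Sox2 sample 2, 15 of the 57 had an unadjusted p under 0.05. Without a filter on low values none of the 13 passed, at limma adjusted p = 0.079 to 0.199, and 18 of the listed genes had an unadjusted p under 0.05.

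Receptor genes outside the list were called in 2 of 6 cases, both higher in the Sox2-labelled libraries. Nrp1, the neuropilin that binds Sema3a, had 48.2 and 33.8 FPKM in the Sox2-labelled libraries, against 9.03 and 1.53 FPKM in the WT-labelled libraries. Its log2 difference was 3.04 (limma adjusted p = 0.0066, higher in both of 2 libraries), and the adjusted p was 0.06 without labelled Sox2 sample 1 and 0.061 without labelled Sox2 sample 2. Plxna4, the A-type plexin through which Sema3a acts on sensory axons, had 5.96 and 9.21 FPKM, against 0.603 and 0.206 FPKM. The log2 difference of Plxna4 was 2.60 (limma adjusted p = 0.0033), and its adjusted p was 0.054 without labelled Sox2 sample 2. An antisense gene, Plxna4os1, overlaps Plxna4, and without a stated strand setting their reads cannot be told apart. Plxna1 was accordingly 6.73 and 4.82 times Plxna4 under the Sox2 label and 47.9 and 100.5 times under the WT label. Nrp2, the neuropilin of Sema3f, had 42.6 and 32.8 FPKM under the Sox2 label and 20.6 and 13.4 FPKM under the WT label, a log2 difference of 1.12 that missed the threshold in limma (adjusted p = 0.057) and passed it under 3 rescalings of the libraries, at 0.0153 to 0.0155. Plxna3 was scarce, with 1.51 and 0.831 FPKM, against 3.01 and 2.12 FPKM, and a log2 difference of -0.72 (limma adjusted p = 0.256).

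Of the 9 tested semaphorins of classes 4 to 7, 2 were called higher and 1 lower. Sema6d, a membrane-bound ligand of plexin A1, had 10.1 and 11.5 FPKM in the Sox2-labelled libraries and 1.32 and 0.722 FPKM in the WT-labelled libraries. Its log2 difference was 2.56 (limma adjusted p = 0.003, and 0.059 without labelled Sox2 sample 2). Sema4f, a membrane-bound class 4 semaphorin, had 11.1 and 6.75 FPKM, against 3.63 and 0.725 FPKM (log2 difference 1.78, limma adjusted p = 0.044). Sema6a, a ligand of plexins A2 and A4, had 2.69 and 1.22 FPKM, against 10.8 and 6.15 FPKM (log2 difference -1.68, limma adjusted p = 0.032). The adjusted p of Sema4f was above the threshold without labelled Sox2 sample 1, labelled Sox2 sample 2 or labelled WT sample 2, at 0.231, 0.169 and 0.231 in that order. That of Sema6a was above it without labelled Sox2 sample 1, labelled Sox2 sample 2 or labelled WT sample 1, at 0.078, 0.34 and 0.105.

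Class 3 semaphorins are cut by furin-type convertases, and this changes their activity. The list of 5 proteases held the convertases Furin, Pcsk5, Pcsk6 and Pcsk7, and Adamts1, which is not a convertase. Of these 5, Pcsk5 was called higher and Pcsk6 lower in the Sox2-labelled libraries. Pcsk6 had 4.40 and 2.23 FPKM there, against 169 and 35.2 FPKM in the WT-labelled libraries, a log2 difference of -4.23 (limma adjusted p = 0.0019). The robust variance model put the adjusted p of Pcsk6 at 0.0645. Pcsk5 had 5.69 and 6.68 FPKM, against 2.31 and 0.994 FPKM, a log2 difference of 1.48 (limma adjusted p = 0.041). Leaving out labelled Sox2 sample 1, labelled Sox2 sample 2 or labelled WT sample 2 raised the adjusted p of Pcsk5 to 0.15, 0.3 and 0.215. Furin, the namesake, was at 30.4 and 34.1 FPKM under the Sox2 label and 35.3 and 42.7 FPKM under the WT label and did not pass. Adamts1 had 51.9 and 22.0 FPKM, against 18.1 and 6.47 FPKM, a log2 difference of 1.55. It missed the threshold in limma (adjusted p = 0.067) and passed it under 3 rescalings of the libraries, at 0.0376 to 0.0468.

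None of the 7 tested co-receptors passed limma's adjusted threshold, and 2 of them, 1 in each direction, had an unadjusted p under 0.05. The most abundant was Itgb1, an integrin chain, at 198 and 138 FPKM in the Sox2-labelled libraries and 189 and 80.9 FPKM in the WT-labelled libraries, with overlap. Ptk7, a kinase-like receptor without catalytic activity, had 35.2 and 28.3 FPKM, against 53.1 and 90.4 FPKM, and a log2 difference of -1.11 (limma adjusted p = 0.06), and passed under the robust variance model (0.032) and without labelled WT sample 1 (0.0042). Kdr, the main VEGF receptor, had 9.53 and 3.47 FPKM, against 3.63 and 0.880 FPKM, and passed in limma without labelled WT sample 1 (adjusted p = 0.0116).

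Inside the cell, 1 of 30 tested plexin effectors was called higher and 5 lower. Mical2, of the family of enzymes that oxidise actin downstream of plexins, had 60.8 and 56.8 FPKM in the Sox2-labelled libraries and 19.2 and 13.0 FPKM in the WT-labelled libraries. The log2 difference of Mical2 was 1.83 (limma adjusted p = 0.0063, with 0.052 without labelled Sox2 sample 1 and 0.076 without labelled Sox2 sample 2). Dpysl3, a member of the collapsin response mediator family, had 2.76 and 0.910 FPKM, against 84.9 and 23.0 FPKM, a log2 difference of -4.08 (limma adjusted p = 0.0017). Its relative Dpysl2, the mediator first tied to Sema3a, had 79.9 and 150 FPKM under the Sox2 label and 76.8 and 89.9 FPKM under the WT label and did not pass. Mras, a GTPase of the R-Ras group on which plexins act, had 3.94 and 4.87 FPKM, against 25.3 and 11.1 FPKM, a log2 difference of -1.73 (limma adjusted p = 0.026). Without labelled Sox2 sample 1, labelled Sox2 sample 2 or labelled WT sample 1 the adjusted p of Mras was 0.132, 0.161 and 0.156. The other genes called lower were Rras2, Limk2 and Arhgef12, with log2 differences of -1.70, -1.24 and -1.06. The adjusted p of Rras2 was 0.179 without labelled Sox2 sample 2. That of Limk2 was 0.088 without labelled Sox2 sample 1, 0.256 without labelled Sox2 sample 2 and 0.106 without labelled WT sample 2. That of Arhgef12 was 0.0805 to 0.251 when any single library was left out, and median-of-ratios rescaling ended the calls of Limk2, Arhgef12 and Mras, at 0.111, 0.147 and 0.0525.

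**Figure D4:**
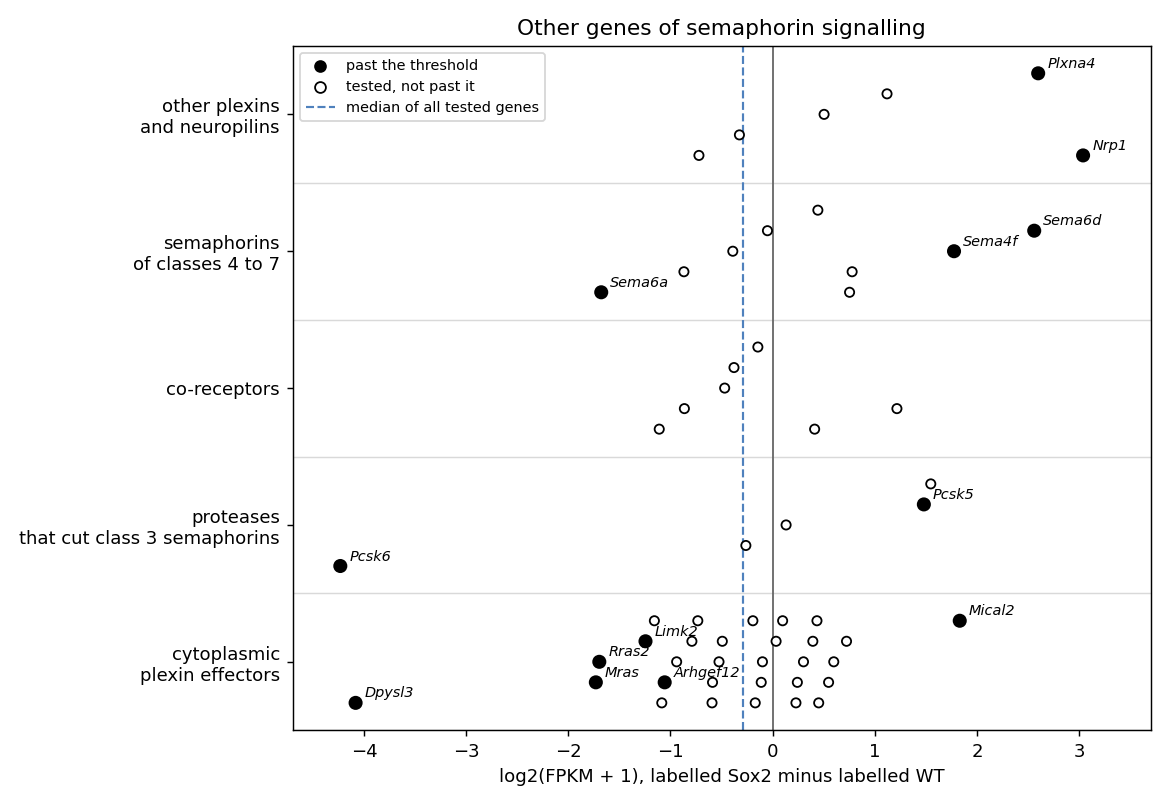
Difference of log2(FPKM + 1), Sox2-labelled libraries minus WT-labelled libraries, for 57 other genes of semaphorin signalling in 5 lists. Filled points passed limma's adjusted threshold and open points did not; the vertical spread within a list has no meaning, and the dashed line is the median of all tested genes. Nrp1, Plxna4 and Sema6d lie furthest to the right, and Pcsk6 and Dpysl3 furthest to the left.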

How the data were processed

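Poly-A RNA of sorted cells was sequenced on a HiSeq2000, per the labels' protocols, giving 2 libraries labelled Sox2 and 2 labelled WT, grouped by their titles. The authors deposited 1 table of FPKM per library, with a lower and an upper bound for each value. Reads were processed with TopHat2, Bowtie2, Cufflinks and Cuffdiff on mm10, per the submitters' processing notes. Tool versions, gene annotation and strandedness were not given in the sources used here. A further table was not used, because its 2 columns of group values carry no name that a label explains. No counts were used, so absolute depth is unknown. For genes of at least 1 FPKM the bounds lay a median of 7.94% and 12.4% from the value under the Sox2 label and 7.81% and 9.90% under the WT label. Summed FPKM ran from 292474 to 721291 per library, and small RNA genes took 367471 of the largest sum, that of labelled WT sample 2.

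The 24490 entries per table were joined by symbol. Entries of the 267 symbols listed several times were added and 1 gene with a failed value was left out, which gave 23990 genes. The 12040 genes that averaged at least 1 FPKM were tested on log2(FPKM + 1), a scale that understates changes at low levels. The test was limma 3.58.1 (lmFit, eBayes with trend, 2 residual degrees of freedom per gene) under R 4.3.3, two-sided, with p-values adjusted by Benjamini-Hochberg over the 12040 genes and called under 0.05. It was tested on simulated data with large changes and the same spread for all genes, unlike these libraries, so that run vouches for no result here. With 2 against 2 libraries no exact permutation test can reach 0.05. No label says that libraries of 1 label came from separate animals, so a p-value here measures just the spread between these libraries, which may be technical. The 10 genes, the pathway and marker lists and the naming rule were chosen with earlier results of these data known. The rule names the 10 genes, Sox2, the other class 3 receptors, up to 3 called genes per pathway list by the size of the difference (the 2 most abundant where none passed), the 2 most abundant markers per cell type list and the 3 most similar profiles per gene. Speer3, Gnat1, Slc38a3, Gnai2, Plxna4os1, Krt5, Furin, Pcsk7, Adamts1, Kdr, L1cam, Dpysl2, Rras2, Limk2, Arhgef12, Cdh5 and Plvap were named after their values were seen. Start-site windows came from RefSeq on GRCm38.p6. Alternatives were a pseudocount of 0.1, no filter, a filter at a mean of 5 FPKM, 3 rescalings, 2 variance models, a replicate block and fits without each library.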

Additional observations from a re-analysis of the deposited data

How the results depend on the processing

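Of 127 differences of the 10 genes under 13 alternative settings, 119 moved by less than the spread between replicates and 5 by more. The other 3 were those of Plxna2, which turned to 0.13 under median-of-ratios rescaling, 0.0765 under quantile normalization and 0.0756 with small RNA and multi-position genes left out. Most of the 119 were bound to stay within the spread between replicates. The filters, variance models and replicate block leave a difference unchanged, and leaving out 1 of 2 libraries cannot shift it further. These counts therefore show little about stability. The difference of Itgb1 ran from -0.20, without labelled WT sample 2, to 1.02, without labelled WT sample 1, when 1 library was left out. Among the 3 rescalings in that order, genes called higher numbered 964, 980 and 894 in all, and 6 of the 10 genes were called higher under each. Pathway genes called lower numbered 4 under median-of-ratios rescaling and 4 under quantile normalization. Without a filter, limma called 0 genes higher and 3 lower, with 1251 and 2618 at an unadjusted p under 0.05, and called 0 pathway genes in either direction and 0 of the 10 genes, of which 18 and 6 had an unadjusted p under 0.05. A filter at a mean of 5 FPKM left 3 pathway genes called higher. A pseudocount of 0.1 and the robust variance model each called 1 of the 10 genes lower. Leaving out each library in turn gave 119 to 837 genes called higher and 115 to 1312 lower, 0 to 10 pathway genes higher and 2 to 6 lower, and 1 to 5 of the 10 genes higher and 0 to 2 lower. The cause of these changes was not tested.

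The labels share replicate numbers, which no label ties to animals or days. Deviations of same-numbered libraries had a correlation of 0.234 across 12040 genes, from only 2 pairs. With the replicate block 1142 genes were called higher and 2730 lower, 9 pathway genes higher and 13 lower, among them the co-receptors Kdr, L1cam and Ptk7, and 5 of the 10 genes higher and 2 lower. Absolute depth is unknown, and levels below 1 FPKM, such as those of Sema3d under the Sox2 label, are the least precise.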
